A study of Mus musculus with 24 samples.

Results

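The liver transcriptome was compared between 6 LKO and 6 LWT male mice that received vehicle alone, which are 12 of the 24 mice of the study. LWT mice carry PPARα in hepatocytes and LKO mice lack it there, as the series title states. All mice were C57Bl/6J males with free access to a standard diet, and vehicle (0.5% carboxymethyl cellulose in water) was given by gavage at Zeitgeber time 10 h, the light period starting at Zeitgeber time 0. Livers were taken at 16 h, in the dark, feeding phase. The other 12 mice, 6 of each genotype, received 3 mg/kg of CL316243, which activates beta3 adrenergic receptors, on the same schedule, and their genotype difference is set beside that of the vehicle mice where it is informative. The age of the mice, the driver of the deletion and the deleted part of Ppara are not given in the sources used here. All genes on the array were considered, and each mouse contributed 1 single-colour array.

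PPARα, a nuclear receptor activated by fatty acids and their derivatives, pairs with RXR and binds direct repeats of a hexamer in DNA. In the liver it is best known from fasting, when it raises the enzymes of mitochondrial and peroxisomal fatty acid oxidation, ketone body synthesis and the hormone FGF21. The vehicle mice had food throughout, so the comparison concerns fed rather than fasted livers.

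Signal strength overlapped between the groups. The 75th percentile of intensity on the vehicle arrays was 456.9 to 577.7 in LWT and 397.4 to 548.7 in LKO, between 27640 and 34202 of 56605 probes lay well above background, and no spot was saturated. Pearson correlations between arrays of a group were 0.9863 to 0.9939 across kept probes. Levels below are on a log2 scale with each array's 75th percentile set to 0, differences are LKO minus LWT on that scale, and a gene is called changed at a Benjamini-Hochberg adjusted p under 0.05 in limma's moderated test across all genes. Each mouse is 1 sample of its group, but litters and cages are not given, so p-values measure the spread between these mice. Of 20824 genes tested, 284 (1.36%) were called, with 102 (0.49%) higher and 182 (0.874%) lower in LKO. The count of higher genes was unstable: it was 52 to 119 with 1 mouse left out, and 43 without the filter on dim probes. It was 52 to 66 without LWT replicate 1 or 5 or LKO replicate 3, 4 or 5. Each omission also leaves fewer mice to test, so these counts do not single out a mouse. The 6 mice of one genotype did not overlap the 6 of the other for 385 genes (1.85%), among them 246 of those called. A change of at least 2-fold was fitted for 71 of the lower and 34 of the higher genes. Each of the 3 slides held 2 mice of each group. All 284 differences had the same sign within every slide, but the genes were called on these same arrays, so this is no independent support.

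Ppara itself (chromosome 15, 85632110 to 85632169, build mm9, as for all probe positions) was 5.46 to 5.93 in LWT with a median of 5.66, and 4.80 to 5.18 in LKO with a median of 5.01. The groups did not overlap. The difference was -0.68 ± 0.09 (SE; limma, adjusted p = 0.00215), or 1.60-fold, and an exact, two-sided permutation test over all splits of the 12 mice gave the smallest p it can, 0.00216. The second probe, nearer the transcript's end, differed by -0.92 with the same exact p. Either probe may lie outside the deleted part and then does not check the genotype, and in whole liver a lower level in every hepatocyte and fewer expressing cells cannot be told apart. In the fit over all 24 arrays the same difference had an adjusted p of 0.158. The CL316243 mice differed by -1.91.

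Transcripts of lipid transport, the liver hormone FGF21 and coenzyme A recycling showed the largest deficits. Mfsd2a encodes a transporter of lysophosphatidylcholine that carries polyunsaturated fatty acids. Its level was 1.70 to 4.01 in LWT (median 2.88) and -4.85 to -2.19 in LKO (median -2.83), a difference of -5.92 ± 0.53 (SE; limma, adjusted p = 7.80e-05), or 60.4-fold lower. No LKO mouse came near the lowest LWT mouse. Fgf21 was -2.45 to 0.67 in LWT (median -1.52) and not well above background in any of the 6 LKO mice. Its measured means were -1.33 in LWT and -6.65 in LKO (limma, adjusted p = 0.000162). With LKO values raised to a floor, the dimmest signal measured above background on each array, it was 11.5-fold lower. That size is not a lower bound, because another way of removing background gave a smaller difference (below). Vnn1 encodes a pantetheinase, which releases pantothenate, the precursor of coenzyme A. It was -0.50 to 0.51 in LWT (median 0.01) and -6.23 to -1.48 in LKO (median -4.47, 3 of 6 arrays above background), a difference of -4.28 ± 0.61 (adjusted p = 0.00308), with 1 LKO mouse far above the other 5 but still below every LWT mouse.

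The promoters of Mfsd2a, Fgf21 and Slc25a34 are printed here because, of the called genes in the metabolic lists whose groups did not overlap and whose promoter sequence was at hand, these 3 had the largest deficits. Each runs 5′ to 3′ on the gene's strand, from 250 bases before the RefSeq transcription start to 50 after it (GRCm38.p6, a later build than the probe positions): Mfsd2a at chr4:122961139-122961438, Fgf21 at chr7:45615441-45615740 and Slc25a34 at chr4:141623785-141624084, all on the minus strand. Capitals mark exact copies of the PPAR half-site AGGTCA, or TGACCT where it lies on the other strand.
Mfsd2a: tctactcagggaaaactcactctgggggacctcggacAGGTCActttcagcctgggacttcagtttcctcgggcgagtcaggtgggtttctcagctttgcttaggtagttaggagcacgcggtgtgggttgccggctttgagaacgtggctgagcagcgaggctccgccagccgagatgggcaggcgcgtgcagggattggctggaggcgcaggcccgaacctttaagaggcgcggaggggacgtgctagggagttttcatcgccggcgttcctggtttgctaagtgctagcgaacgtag
Fgf21: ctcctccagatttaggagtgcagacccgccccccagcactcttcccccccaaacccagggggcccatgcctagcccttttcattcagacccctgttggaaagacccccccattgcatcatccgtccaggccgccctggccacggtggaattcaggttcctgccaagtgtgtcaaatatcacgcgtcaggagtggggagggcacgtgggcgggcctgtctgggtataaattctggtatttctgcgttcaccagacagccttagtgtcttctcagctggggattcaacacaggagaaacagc
Slc25a34: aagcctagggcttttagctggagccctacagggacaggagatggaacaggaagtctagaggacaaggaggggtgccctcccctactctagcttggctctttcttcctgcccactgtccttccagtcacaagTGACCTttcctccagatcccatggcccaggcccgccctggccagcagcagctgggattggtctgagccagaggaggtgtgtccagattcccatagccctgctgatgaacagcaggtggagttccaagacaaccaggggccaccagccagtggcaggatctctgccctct
Mfsd2a and Slc25a34 hold 1 half-site each, 213 and 119 bases before the start, and Fgf21 holds none. An exact half-site occurs in 13.5% of the 12309 promoters of tested genes, in 11.5% of the 131 promoters of genes lower in LKO and in 17.9% of the 78 of genes higher in LKO. The full direct repeat, AGGTCA followed by any 1 base and AGGTCA again, searched on both strands with up to 2 mismatches (so that a match can also hold an exact half-site), occurs in 3.48% of tested promoters, in 8 of the 131 (6.11%) and in 2 of the 78 (2.56%). These windows say nothing about sites farther away. The copies nearest to the repeat, with matching bases in capitals, had 1 mismatch. They were AGGcCAgAGGTCA at Apoc2 (122 bases before the start) and AGGTCAaAGtTCA at Ctcflos (196 bases before, other strand). The carnitine carrier Slc25a20 holds AGGTgAaAGGTCg just after its start, with 2 mismatches like the remaining matches in called genes. In the beta-oxidation list described below, a match occurred in 1 of 11 promoters of called genes (9.09%) and 2 of 9 of genes not called (22.2%).

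The 12 largest deficits with groups that did not overlap also held receptors and carriers. Mtnr1a, a melatonin receptor, was -2.58 to -0.46 in LWT and above background in 0 of 6 LKO mice (means -1.75 and -6.03, limma, adjusted p = 7.94e-05). It was 8.60-fold lower with LKO values raised to the floor described for Fgf21. Serinc2, of the serine incorporator family, was 0.05 to 1.26 in LWT and -3.95 to -3.12 in LKO (5 of 6 arrays above background), lower by 4.03 ± 0.20 (SE; adjusted p = 4.23e-07). Caln1, a calcium-binding protein, fell by 3.36 ± 0.31 (adjusted p = 0.000103), and its second probe by 3.24. Slc25a34, an orphan member of the mitochondrial carrier family, was -0.94 to 0.22 in LWT and -3.50 to -2.32 in LKO, a difference of -2.48 ± 0.24 (adjusted p = 0.000163), but a second probe nearer the start of the transcript gave -0.14. Esrrg, the oestrogen-related receptor gamma, Rufy4 and Foxp2 were above background in 0 of 6 LKO mice (limma, adjusted p = 0.00196, 0.000129 and 0.0329). Their means were -3.39, -3.84 and -4.06 in LWT against -6.21, -6.94 and -6.38 in LKO. With LKO values raised to that floor they were 2.75-fold, 2.02-fold and 1.73-fold lower. Foxp2 was called no longer when any of 5 LKO mice (replicates 1, 2, 4, 5 or 6) was left out (limma, adjusted p 0.0569 to 0.0835). It was above background on only 4 of 6 LWT arrays, so leaving out any of those 4 removed it from the test. Its call was also lost with a slide block, slide and row blocks or a replicate block. The same held in the authors' series table and without the filter on dim probes. For the dim genes, sizes depended on how background was removed: with normexp in place of the scanner's subtraction, Fgf21 differed by -2.17, Mtnr1a by -1.70, Esrrg by -0.79 and Rufy4 by -0.63, each still called, while Foxp2 (-0.52) was not. Across the alternative runs, the smallest difference was -4.71 for Mfsd2a and -2.31 for Vnn1, which were called in every run.

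**Figure D1:**
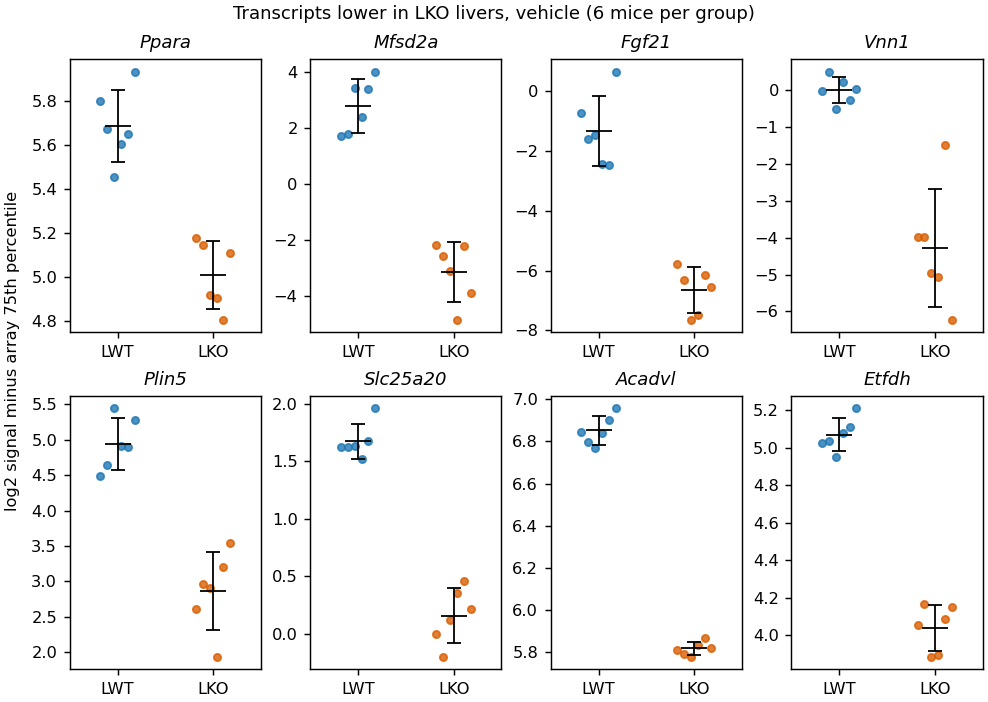
Level of 8 transcripts in each vehicle mouse, as log2 signal minus the array's 75th percentile (vertical axes differ and do not start at 0), with the mean as a bar and the SD as whiskers. The 6 LKO mice lie below the 6 LWT mice in all 8 panels, with deficits from 0.68 for Ppara to 5.92 for Mfsd2a.

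Mitochondrial fatty acid oxidation was the pathway with the highest share of called genes among the lists: 12 of 23 genes of the carnitine shuttle and beta-oxidation fell (52.2%, against 0.874% of all genes in that direction), 0 rose, and the median difference was -0.44 against -0.02 over all genes tested. Slc25a20, the carrier that brings acylcarnitines into the matrix, was 1.52 to 1.97 in LWT (median 1.63) and -0.20 to 0.46 in LKO (median 0.17). That is a difference of -1.52 ± 0.11 (SE; limma, adjusted p = 1.47e-05), with a wide gap between the groups. Cpt2, which reforms acyl-CoA on the matrix side, was 5.47 to 6.00 in LWT and 4.48 to 4.86 in LKO, lower by 1.01 ± 0.09 (adjusted p = 7.97e-05). Acadvl, the very long-chain acyl-CoA dehydrogenase that opens the cycle, was tightly grouped: 6.77 to 6.96 in LWT and 5.78 to 5.87 in LKO, so that a difference of -1.03 ± 0.05 (adjusted p = 2.60e-07) was many times the spread among mice.

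The deficit ran along the whole route from dehydrogenation to electron transfer, but not through every enzyme. Among dehydrogenases, Acadl differed by -0.89 and Acads by -0.48, while medium-chain Acadm was at 0.11 (adjusted p = 0.689). The trifunctional protein, which handles the next steps for long chains, had Hadha at -0.41 and Hadhb at -0.44 (adjusted p = 0.0117 and 0.00417), and the thiolase Acaa2 was at -0.26 (adjusted p = 0.0342). The short-chain hydratase Echs1 (0.12) and dehydrogenase Hadh (-0.01) were not called. Eci2 and Eci1, the isomerases needed for unsaturated fatty acids, fell by 1.30 ± 0.09 and 0.58 ± 0.07, although Eci2 has a close paralog, Eci3, that was also lower (-1.31) and that a probe may not tell apart. Electrons leave the dehydrogenases through the electron transfer flavoprotein and its oxidoreductase: Etfdh was 4.95 to 5.21 in LWT and 3.89 to 4.17 in LKO, lower by 1.03 ± 0.07 (adjusted p = 8.42e-06), Etfb fell by 0.85, and Etfa, at -0.17, was not called (adjusted p = 0.203) although its groups did not overlap. Cpt1a, the rate-limiting entry enzyme, was 4.49 to 5.66 in LWT and 4.38 to 4.95 in LKO, a difference of -0.45 ± 0.16 that was not called (adjusted p = 0.299). The count for the list lay between 10 and 13 in every alternative run, including each omission of 1 mouse.

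**Figure D2:**
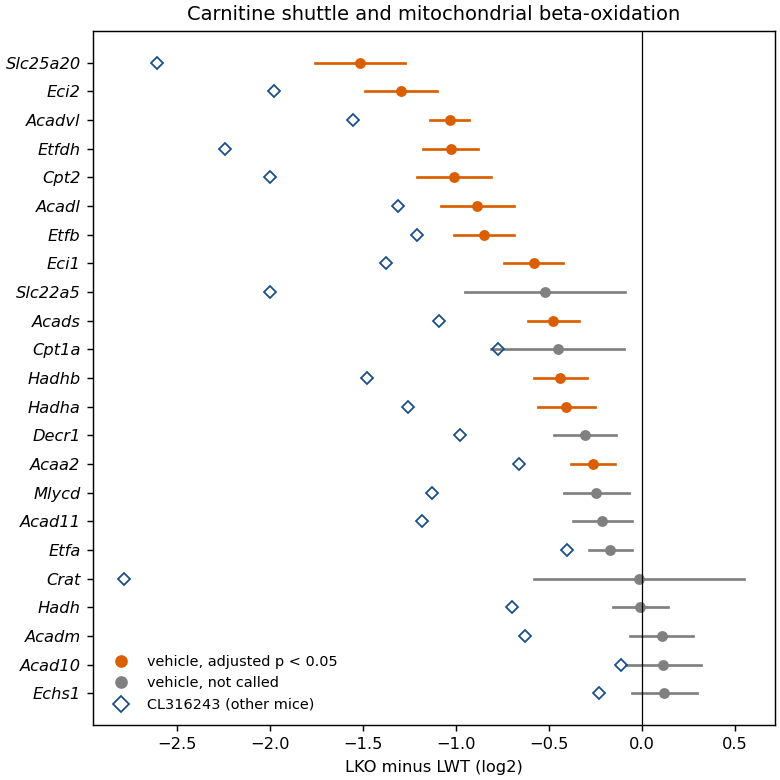
Difference between LKO and LWT (log2) for the 23 genes of the carnitine shuttle and mitochondrial beta-oxidation, with 95% confidence intervals for vehicle mice (orange, called; grey, not called) and the point estimate in the CL316243 mice (diamonds). In vehicle mice 20 of 23 estimates lie below 0, from -1.52 for Slc25a20 to 0.12 for Echs1.

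Peroxisomal genes divided into a few that fell and a majority near 0. Of 37 peroxisomal oxidation and biogenesis genes, 6 fell (16.2%, against 0.874% of all genes) and 0 rose, with a median of -0.09 against -0.02 over all genes. Abcd2, an importer of very long-chain acyl-CoA, was -3.49 to -1.80 in LWT and -6.38 to -4.59 in LKO (2 of 6 arrays above background), a difference of -2.56 ± 0.36 (limma, adjusted p = 0.00298) that was -0.82 with normexp. Ech1, an isomerase for dienoyl-CoA found in peroxisomes and mitochondria, was 5.03 to 5.44 in LWT and 3.67 to 4.19 in LKO, lower by 1.28 ± 0.10 (adjusted p = 1.97e-05). Pxmp4, a peroxisomal membrane protein, fell by 1.26, Hsd17b4, the D-bifunctional enzyme, by 0.89, the biogenesis factor Pex16 by 0.41 and the reductase Decr2 by 0.25. In contrast, Ehhadh, the L-bifunctional enzyme, was 3.18 to 3.80 in LWT and 3.58 to 4.18 in LKO, at 0.29 ± 0.13 (adjusted p = 0.416). The genotypes overlapped.

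Microsomal omega-oxidation, carried out by the Cyp4a enzymes that are classical PPARα targets, had 0 of 14 genes called by limma, with 5 at an unadjusted p under 0.05. Leaving out LWT replicate 1 or 3 gave 1 lower call, and leaving out LKO replicate 2 gave 1 higher call. Cyp4a31 came nearest, at 1.33 to 3.81 in LWT and -0.62 to 2.03 in LKO (-2.09 ± 0.49, adjusted p = 0.0669). Cyp4a10 was -0.14 to 1.74 in LWT and -0.63 to 0.73 in LKO, at -0.90 ± 0.32 (adjusted p = 0.278). Its 2 other probes gave -2.19 and -1.88. Cyp4a10 was called with normexp and in the authors' series table (-2.08). Each run picked the brightest probe anew, so effects of the background method and of the probe on this call cannot be told apart. Cyp4a14 did not pass the filter on dim probes, with 3 of 6 LWT and 1 of 6 LKO arrays above background. Cyp4a genes are close paralogs, and their probes may share signal.

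Ketone body handling, coenzyme A synthesis and hepatocyte secretion gave small counts in short lists, with shares above the 1.36% called over all genes. In the ketone body list of 10 genes, Bdh2, a cytosolic dehydrogenase of the short-chain family, rose by 0.53 ± 0.09 (limma, adjusted p = 0.00900). Vnn1 and Fgf21 were the sole called members of their lists, of 12 genes of pantetheinases and coenzyme A synthesis (8.33%) and 25 of secreted hepatocyte proteins (4.0%). Angptl4, a secreted inhibitor of lipoprotein lipase and a well-known PPAR target, was 4.43 to 6.01 in LWT and 3.84 to 5.48 in LKO, at -0.44 ± 0.33 (adjusted p = 0.703).

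Lipid droplet and glycerolipid genes were lower in part. Of 21 lipid droplet and lipolysis genes, 4 fell and 0 rose, with a median of -0.15, where 0.874% of all genes fell; 2 were called lower in the fit over all 24 arrays or without the filter on dim probes. Plin5, the perilipin that couples droplets to mitochondria, was 4.49 to 5.45 in LWT and 1.94 to 3.54 in LKO (medians 4.90 and 2.94), a difference of -2.08 ± 0.25 (limma, adjusted p = 0.000794) matched by a second probe (-2.23). Fitm1 and Fitm2, endoplasmic reticulum proteins of droplet formation, fell by 2.40 ± 0.26 and 0.65 ± 0.12, and the LKO mouse highest for Fitm2 overlapped the LWT range. Cidec, which drives droplet fusion, fell by 1.30 ± 0.27 (adjusted p = 0.0325), a call that was lost without any 1 of 8 mice (LWT replicates 1, 4 and 5 and LKO replicates 1 to 5; adjusted p 0.0523 to 0.0835). Plin2, which coats most droplets, was 4.78 to 7.06 in LWT and 4.73 to 5.22 in LKO (-0.62 ± 0.30, adjusted p = 0.495), and the difference was -0.32 without LWT replicate 6.

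Among 31 genes of fatty acid and triglyceride synthesis, 4 fell (12.9%, against 0.874% of all genes) and 0 rose, with a median of -0.10. Gpat3, which starts glycerolipid synthesis, was -1.10 to 0.66 in LWT and -3.33 to -2.12 in LKO (-2.26 ± 0.30, adjusted p = 0.00196), and its second probe gave -0.97. Fads2, the delta-6 desaturase, fell by 0.63, Elovl2, which elongates polyunsaturated fatty acids, by 0.51, and Agpat3 by 0.36. Elovl2 was called no longer without LWT replicate 1, 5 or 6 or LKO replicate 3 or 4 (adjusted p 0.0527 to 0.0713). Of 30 apolipoprotein and lipoprotein genes, Lrp1, a receptor for remnants, and Apoc2, the activator of lipoprotein lipase, fell by 0.38 and 0.28 (6.67%, against 0.874% of all genes). A second Lrp1 probe gave -0.365 and a dim one -0.08. In this list, 5 genes fell with normexp or in the series table. The Apoc2 call was lost in the fit over all 24 arrays (limma, adjusted p = 0.246), without the filter on dim probes and with slide and row or replicate blocks. That of Lrp1 was lost with the replicate block and the mean of its probes. Abcb4, the canalicular phosphatidylcholine pump, was the sole called gene of 22 in bile acid synthesis and transport (4.55%, against 1.36% of all genes). It was at -0.60 ± 0.11 (limma, adjusted p = 0.0141), and all 3 of its probes were lower. Its call was lost in the fit over all 24 arrays (0.0899), without the filter on dim probes and with the replicate block. Gpd1, the glycerol-3-phosphate dehydrogenase, fell by 0.51 on its main probe but was at -0.07 on a second one. The call was lost with the mean of its probes (-0.29, adjusted p = 0.275), in the fit over all 24 arrays (0.545) and without LKO replicate 3 or LWT replicate 4 (0.0523 and 0.0608). Cd36, a fatty acid translocase, was -1.62 to -0.01 in LWT and -1.08 to 0.65 in LKO (0.45 ± 0.34, adjusted p = 0.702), and limma called 0 of 20 genes of fatty acid uptake and activation (2 at an unadjusted p under 0.05).

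**Figure D3:**
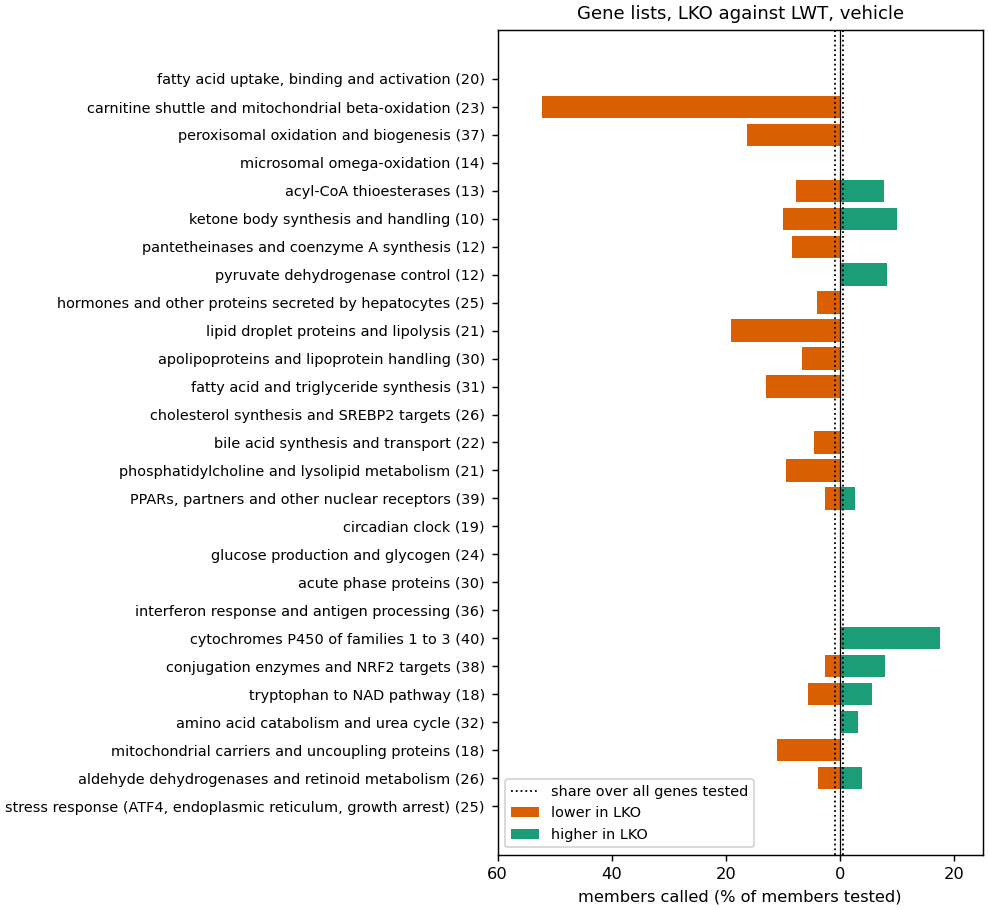
Share of the tested members of each of 27 gene lists that were called lower (left, orange) or higher (right, green) in LKO vehicle livers, in percent, with the number tested in brackets and dotted lines at the shares over all genes (0.874% lower and 0.49% higher). The longest bar on the left is the beta-oxidation list (12 of 23) and on the right the cytochromes P450 of families 1 to 3 (7 of 40).

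Fewer genes were higher than lower in LKO. Moxd1, a monooxygenase related to dopamine beta-hydroxylase, was -3.03 to 0.60 in LWT (median -0.32) and 1.15 to 4.49 in LKO (median 3.37), a rise of 4.00 ± 0.71 (limma, adjusted p = 0.0141) despite a broad spread in both groups. Gldn, gliomedin, was -5.17 to -3.02 in LWT (5 of 6 arrays above background) and -0.91 to 0.64 in LKO, higher by 3.56 ± 0.37 (adjusted p = 0.000267). Serpinb1a, an inhibitor of neutrophil serine proteases, was -2.38 to -1.89 in LWT and 0.05 to 1.53 in LKO, higher by 2.99 ± 0.24 (adjusted p = 2.47e-05). Its paralog Serpinb1c was above background in 0 of 6 LWT mice and all 6 LKO mice (means -6.55 and -2.86, limma, adjusted p = 1.17e-05). It was 4.33-fold higher with the scanner's background subtraction and LWT values raised to the floor described for Fgf21. With normexp the difference was 0.96 on the log2 scale, and the 2 genes are close in sequence and a second, dim probe for Serpinb1c gave 0.04.

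Tmeff2, a transmembrane protein with follistatin-like domains, was above background in 1 of 6 LWT and 6 of 6 LKO mice and differed by 3.98 ± 0.44 (adjusted p = 0.000502), or by 1.63 with normexp. Lrtm1, a leucine-rich repeat membrane protein, was -2.15 to 0.52 in LWT and 1.87 to 3.28 in LKO (2.72 ± 0.44, adjusted p = 0.00755). The remaining genes of the highest 12 were Adam11 (2.54), Pdk4 (2.04), the water channel Aqp4 (1.95), Dct (1.89), the tubulin Tuba8 (1.82) and the acyltransferase Acnat2 (1.78). Probes of one gene disagreed for 3 of these: a second probe gave 0.12 for Adam11 and -0.004 for Dct, and the other kept probes of Aqp4 gave 1.22 and 0.14. Acnat2 was called no longer without any 1 of 7 mice (LWT replicates 3 to 6 and LKO replicates 3 to 5; adjusted p 0.0534 to 0.0786).

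Several cytochromes P450 of the families that handle steroids and foreign compounds were higher in LKO. Of 40 genes of families 1 to 3, 7 rose (17.5%, against 0.49% of all genes) and 0 fell, 33 were not called, and the median was 0.21. In the CL316243 mice the median of the list was 0.07. Cyp2c37 was 6.28 to 6.88 in LWT and 7.27 to 7.47 in LKO, higher by 0.65 ± 0.10 (limma, adjusted p = 0.00417), and Cyp2c50 was 6.08 to 6.76 in LWT and 7.09 to 7.30 in LKO, higher by 0.64 ± 0.11 (adjusted p = 0.00900). Both sets of mice were clearly apart, with LWT replicate 3 the lowest. Cyp1a2, a marker of pericentral hepatocytes, was 2.77 to 3.31 in LWT and 3.35 to 4.30 in LKO (0.76 ± 0.16, adjusted p = 0.0333), and Cyp2a22 differed by 0.89, Cyp2d22 by 0.57, Cyp2c54 by 0.56 and Cyp2c29 by 0.31. Cyp2c genes are close paralogs, so these may not be independent readings. The count of 7 was 6 without LWT replicate 3 but 3 without LKO replicate 4 or 5 or without the filter on dim probes and 4 without LWT replicate 1, 5 or 6. Cyp1a2 lost its call without any 1 of 9 mice (all but LWT replicate 4 and LKO replicates 1 and 6; adjusted p 0.0532 to 0.0856), and Cyp2a22 without any 1 of 5 (LWT replicates 5 and 6 and LKO replicates 3, 4 and 5; 0.0565 to 0.0692).

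Nr1i3 encodes the constitutive androstane receptor, a regulator of several Cyp2 genes. It was the sole gene called higher of 39 in the list of PPARs, their partners and other nuclear receptors, where 0.49% of all genes rose. It was 2.14 to 2.78 in LWT and 2.71 to 3.29 in LKO, a small overlap, with a difference of 0.68 ± 0.12 (adjusted p = 0.0169) and of 1.01 on its second probe. In the fit over all 24 arrays its adjusted p was 0.198, and its call was also lost without the filter on dim probes and with the replicate block. Cyp2b10, the best known target of that receptor, was -3.63 to 0.26 in LWT and -2.65 to 0.08 in LKO (0.72 ± 0.69, adjusted p = 0.777), a spread too wide to show a difference of that size. Among 38 conjugation genes, Ugt2b1 (0.59), Gstt3 (0.53) and the epoxide hydrolase Ephx1 (0.28) rose and Ephx2, a hydrolase of fatty acid epoxides, fell by 0.44 ± 0.08 (adjusted p = 0.0170). Over all genes tested, 0.49% rose and 0.874% fell. The 3 rises were fragile: 0 were called without LWT replicate 1, and the count was 1 without any of LWT replicates 4 and 6 and LKO replicates 1 to 5.

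**Figure D4:**
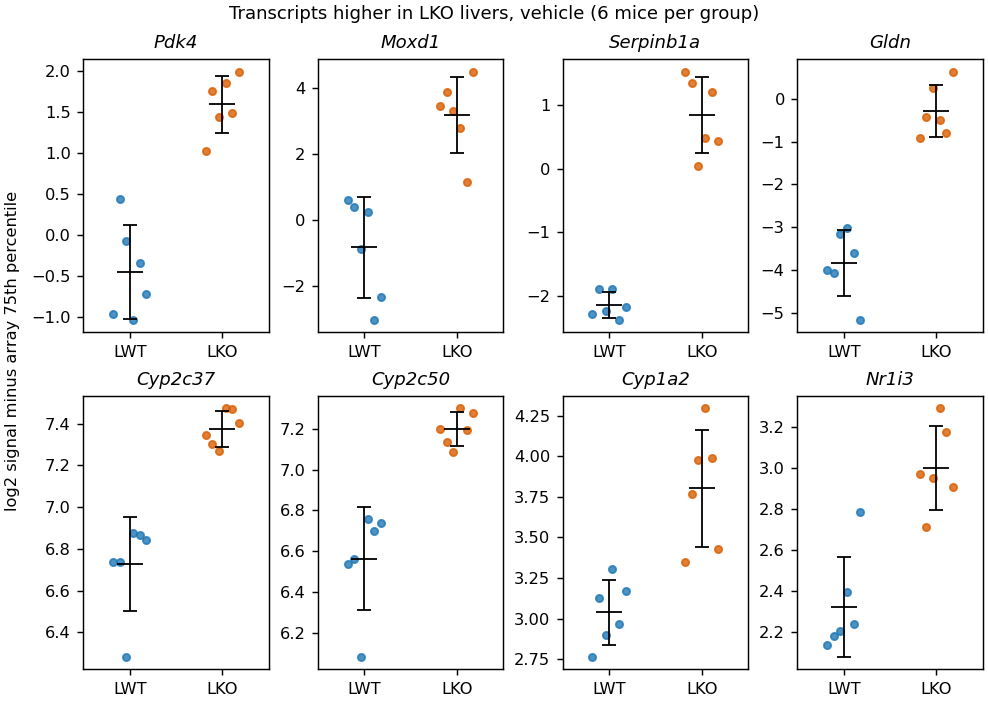
Level of 8 transcripts higher in LKO in each vehicle mouse, as log2 signal minus the array's 75th percentile (axes differ and do not start at 0), with the mean and SD. The groups are apart in every panel except that for Nr1i3, where the highest LWT mouse (2.78) lies above the lowest LKO mouse (2.71).

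A few genes of fatty acid metabolism were higher in LKO under vehicle and lower in LKO under CL316243. Pdk4 encodes a kinase that switches off pyruvate dehydrogenase and spares glucose. It was -1.04 to 0.44 in LWT (median -0.53) and 1.02 to 1.99 in LKO (median 1.62), a rise of 2.04 ± 0.25 (limma, adjusted p = 0.00104), whereas under CL316243 the difference was -2.69 ± 0.54 (adjusted p = 0.00737). The change between these differences was itself called, at -4.73 ± 0.62 (adjusted p = 3.34e-05). Acot5, a peroxisomal thioesterase that frees fatty acids from coenzyme A, was -2.74 to -0.78 in LWT and -1.43 to 0.16 in LKO (1.59 ± 0.33, adjusted p = 0.0339), and -3.83 under CL316243, with a called change of -5.43. Its second probe gave -0.08 under vehicle and -4.08 under CL316243, and the vehicle call was lost without any 1 of 10 mice (all but LWT replicate 6 and LKO replicate 2; adjusted p 0.0523 to 0.0883).

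The whole Acot1 to Acot6 cluster had positive estimates under vehicle, from 0.79 for Acot4 to 1.59 for Acot5, but Acot5 alone was called (adjusted p 0.0641 to 0.264 for the other 5). Acot1, the cytosolic member, was 2.45 to 4.62 in LWT and 3.75 to 5.44 in LKO (1.35 ± 0.34, adjusted p = 0.0943), and it was called without LWT replicate 6 or LKO replicate 2 (adjusted p = 0.0211 and 0.0414). Under CL316243 it was -2.95 ± 0.22, and the change between treatments was -4.30 (adjusted p = 8.88e-07). Without LWT replicate 6, 5 thioesterases were called higher in place of 1. The cluster's members are near copies of each other, so their probes may share signal. Acot8, the peroxisomal thioesterase outside the cluster, fell by 0.60 ± 0.07 (adjusted p = 0.00122) under vehicle and by 2.02 under CL316243.

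Other mice of the same genotypes gave most vehicle differences the same sign. Of the 284 genes, 265 had the same sign on the CL316243 arrays, which share no mouse with the vehicle arrays, and 179 were called there in that direction, where 10.4% of all genes were called. By direction, 137 of the 182 lower genes were called lower (5.77% of all genes were), and 42 of the 102 higher genes were called higher (4.58% of all genes were). Opposite calls were made for 3 genes, Pdk4, Acot5 and Lamb3, a laminin subunit at 0.79 under vehicle and -3.13 under CL316243. The change between treatments subtracts the vehicle difference by which the 284 were chosen, so their count cannot be weighed against that of all genes. It was called for 78 of the 284, and for 5.41% of all genes tested. Etfdh, for instance, was at -1.03 under vehicle and -2.24 under CL316243 (change -1.21 ± 0.10, adjusted p = 2.52e-08), and Cidec at -1.30 and -4.58 (change -3.28 ± 0.49, adjusted p = 0.000154). For Mfsd2a (-5.92 and -4.69) the change was not called (adjusted p = 0.495). Fgf21 was at -3.67 under CL316243, where all 6 LKO mice were above background. Its fitted change, 1.65 ± 0.80, was not called (limma, adjusted p = 0.280). The size of that change is uncertain, because the vehicle LKO signal was not above background. Ehhadh, not called under vehicle, was at 0.29 there and at -4.48 under CL316243 (change -4.77 ± 0.19, adjusted p = 2.31e-13).

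**Figure D5:**
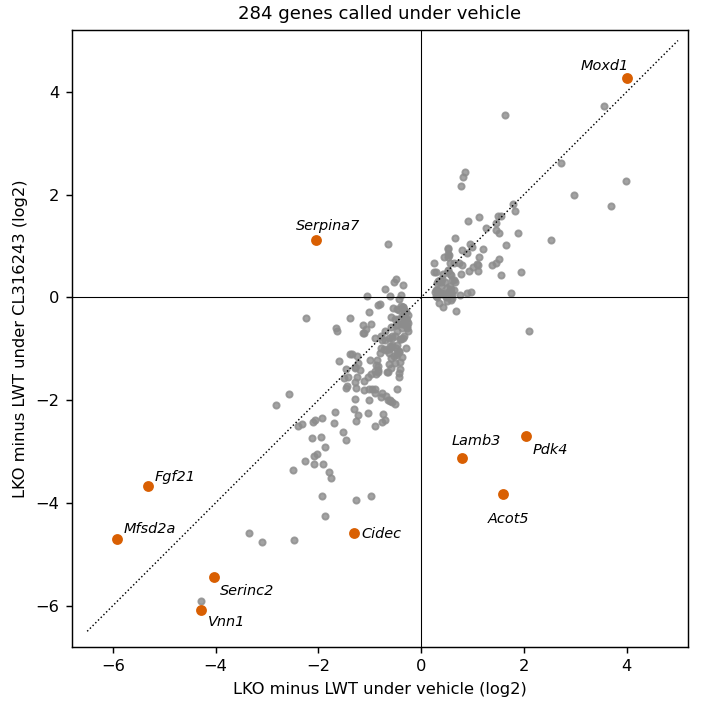
Difference between LKO and LWT under vehicle (horizontal, log2) and under CL316243 in other mice (vertical, log2) for the 284 genes called under vehicle, with the diagonal dotted and selected genes named in orange. Most points lie in the lower left and upper right, and Pdk4, Acot5 and Lamb3 lie at the lower right. Serpina7 (-2.05 and 1.11), at the upper left, was picked out after its values were seen, and the horizontal value of Fgf21 rests on LKO signal not above background.

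Other parts of liver metabolism gave small counts. Called were 11.1% of tryptophan to NAD genes, 3.12% of amino acid genes and 7.69% of retinoid genes, against 1.36% of all genes. The tryptophan to NAD pathway had Afmid higher (0.53) and Aox3 lower (-0.77, lost without any 1 of 10 mice, all but LKO replicates 4 and 5; adjusted p 0.0617 to 0.11) of 18 genes. Amino acid catabolism had Gnmt, which uses S-adenosylmethionine, higher by 0.29 of 32 genes, a call lost without any 1 of 9 mice (all but LWT replicates 3 and 6 and LKO replicate 2; adjusted p 0.0574 to 0.0865). Dhrs4, a retinal reductase, was tightly grouped at 5.42 to 5.59 in LWT and 4.52 to 4.70 in LKO (-0.84 ± 0.05, adjusted p = 6.50e-06), and Aldh1a2, a retinaldehyde dehydrogenase of 26 genes in that list, was dim and higher by 0.60, which was 0.17 and not called with normexp (adjusted p = 0.178) and not called in the fit over all 24 arrays (0.15). No gene was called by limma in the lists for cholesterol synthesis (26 tested), the circadian clock (19), glucose production and glycogen (24), acute phase proteins (30), interferon response (36) or stress response (25), where 2, 1, 1, 8, 2 and 2 genes had an unadjusted p under 0.05. Of these, cholesterol synthesis gave 1 lower call without LWT replicate 3 or LKO replicate 2, and acute phase proteins gave 1 higher call without LKO replicate 3 and 2 without LWT replicate 6.

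Markers of the cell types that whole liver contains did not separate the genotypes. All 14 hepatocyte markers, among them Alb, Ttr and Hnf4a, were above background on all 12 arrays, 0 were called, and their summed linear signal (each in multiples of the array's 75th percentile) was 4847 to 5317 in LWT and 5000 to 6173 in LKO. For Kupffer cells and macrophages the sum was 84.9 to 174.0 in LWT and 95.3 to 163.1 in LKO, for endothelial cells 67.9 to 73.9 and 61.4 to 77.8, for stellate cells and fibroblasts 55.6 to 79.6 and 51.3 to 72.5, for cholangiocytes 5.32 to 8.92 and 5.46 to 8.84, and for lymphocytes and neutrophils 33.2 to 41.1 and 31.9 to 41.5. Limma called 0 genes in each of these lists, with 2 endothelial and 3 lymphocyte or neutrophil genes at an unadjusted p under 0.05 and 0 in the others, and 1 endothelial gene was called lower without LWT replicate 4. The lists for adipose, pancreas and blood (250 to 307 and 203 to 448) and for proliferation (2.94 to 8.44 and 3.13 to 5.86) overlapped as well. Of the former, Alas2, the haem synthesis enzyme of red cells, was called at 0.41 ± 0.08 (adjusted p = 0.0227; lost without LWT replicate 1 or 2 or LKO replicate 1 or 4). Defining markers Cd79a, Prss1 and Bub1 were above background on no vehicle array.

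Genes beside Ppara were examined because linked sequence can differ between a knockout and its control line. Within 5 Mb on either side, 5 of 167 tested genes were called (2.99%, against 1.36% overall): Ppara, Cdpf1, Chadl, Cyp2d22 and Dennd6b. This count includes Ppara, the targeted gene itself, so the share among its neighbours alone is lower. Cdpf1, whose probe (85637436 to 85637495) is the next one along chromosome 15 after that of Ppara, was -1.21 ± 0.30 (SD, n = 6) in LWT and -2.27 ± 0.12 in LKO, a difference of -1.06 (limma, adjusted p = 0.000794). In the CL316243 mice it was 0.02, and the change between treatments was called (1.08, adjusted p = 0.00489). Chadl differed by -0.90, with a second probe at 0.20, and Dennd6b by -0.38, with a second probe at -0.05. Whether linked sequence plays a part was not tested.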

How the data were processed

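Total liver RNA was hybridised to Agilent single-colour arrays, 1 per mouse. Spot intensities were deposited as the authors' scanner software made them (Agilent Feature Extraction 10.10.1.1), and the intensity used, per the file headers, is linear and has background subtracted. The deposited series table holds log2 values that equal the quantile-normalised log2 of the scanner's median signal (99.26% of values within 0.01, over 31367 probes); it served as an alternative. Mice were grouped by the genotype and treatment in the labels. Of 62976 spots, 59305 were not controls (56605 probes). Outlier spots were removed, spots of a probe averaged, log2 taken and each array's 75th percentile subtracted. A probe was kept where 4 or more of the 6 arrays of a vehicle group flagged it well above background, and the kept probe with the highest mean stood for its gene.

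The 12 vehicle arrays were fitted with limma 3.58.1 (R 4.3.3; residual df 10, prior df 2.23, median SE 0.104). The CL316243 arrays were fitted apart, and the change between treatments came from all 24. P-values were Benjamini-Hochberg adjusted over all genes; the fits were checked on simulated data. Precision rests on 6 mice per group. Array names were updated through RefSeq (GRCm38.p6): 14068 by accession, 1455 by symbol, 86 by synonym, 5215 not matched. Promoters came from the same source.

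Named genes were 15 known PPARα targets and related genes, the 12 largest called rises and falls without overlap (identifiers passed over), up to 4 called members of each list and, where a count was 5 or fewer, its members. Some of these are not reported here. Further list members were named to show a pathway or a probe's paralogs. The members, the 27 pathway lists and the 8 marker lists were chosen with earlier results of these data known. Alternatives covered background, normalisation, dim-probe filter, probe choice, slide, row and replicate blocks, the prior, all 24 arrays and leaving out each mouse.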

Additional observations from a re-analysis of the deposited data

Results flagged for a closer look

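Among 140 sets of 6 mice checked, 7 held a mouse far from the nearest other, and chance alone gives about 1 set in 20. LWT replicate 3 was the low mouse for Lrtm1 (-2.15), Cyp2c37 (6.28) and Cyp2c50 (6.08), whose calls held without it. LWT replicate 6 was high for Slc25a20 (1.96) and Dhrs4 (5.59), LWT replicate 4 high for Foxp2 (-1.92), and LKO replicate 6 high for Fitm2 (-0.42).

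The 71 genes named by rule from the targets, leading genes and lists were picked partly by the vehicle difference. The genotype difference under CL316243 minus that under vehicle reuses it, so their share is not comparable with the 5.41% called among all genes. This change was called for 25 of the 71 (limma over all 24 arrays, adjusted p 2.31e-13 to 0.0433), and in each it was negative. Among beta-oxidation genes it was -1.09 for Slc25a20, -0.68 for Eci2, -0.52 for Acadvl and -1.21 for Etfdh. Among peroxisomal and thioesterase genes it was -1.14 for Pxmp4, -0.90 for Hsd17b4, -4.77 for Ehhadh, -4.30 for Acot1, -5.43 for Acot5 and -1.42 for Acot8. Droplet and lipid genes gave -1.17 for Plin5, -3.28 for Cidec, -1.35 for Fitm2 and -0.42 for Agpat3. Oxidising and retinoid enzymes gave -3.78 for Cyp4a10, -0.80 for Cyp2a22, -0.71 for Cyp1a2, -0.64 for Ephx2 and -0.61 for Dhrs4. The others were Ppara (-1.23), Pdk4 (-4.73), Serinc2 (-1.42), Slc25a34 (-2.24), Serpinb1c (-1.90) and Adam11 (-1.42). Of genes named besides, Cdpf1 (1.08, adjusted p = 0.00489) and Serpina7 (3.16, adjusted p = 0.00471) had a positive change. For Serpinb1c the vehicle LWT signal was not above background, so the size of its change is uncertain.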

How the results depend on the processing

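Against 284 genes called in the main analysis, 152 were called without the filter on dim probes (43 higher, 109 lower; 145 of them among the 284) and 164 with the replicate block (52 higher, 112 lower; 149 among the 284). Of the 284, 179 changed by at least 1.5-fold (61 higher, 118 lower), and slide and row blocks gave 64 higher genes. Leaving out 1 mouse gave 193 to 345 calls in all, 52 to 119 higher and 134 to 226 lower. The fewest in all (193) and the fewest higher came without LKO replicate 5, the fewest lower without LKO replicate 3, and the most of each without LWT replicate 3, and the higher genes numbered 66 or fewer without LWT replicate 1 or 5 or LKO replicate 3, 4 or 5. Normexp (319), quantile normalisation (301), the series table (340), a mean over probes (278), a slide block (230) and all 24 arrays (252, of which 196 were among the 284) stayed within 1.5 times of the total. Replicate numbers did not pair mice (correlation of deviations -0.013 to 0.094; 1 of 6 LKO mice correlated best with its own number). Ppara, at -0.68, missed the threshold in the fit over all 24 arrays (adjusted p 0.158), and the changed genotype differences numbered 663 in place of 1153 without the filter. No named gene changed sign; other settings kept 674 results on their side of the threshold, ended 79 calls and added 3, and single omissions kept 722, ended 96 and added 2. Signal near background limits the size, not the sign, of the largest deficits.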
